A study of Homo sapiens with 8 samples.

Results

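The BCL2 family decides whether a cell keeps its mitochondrial outer membrane intact, and 10 of its genes were described in ABC1 and HCC4006 cells treated with the electrophile DEM or with vehicle. They were named by symbol: the anti-apoptotic genes *BCL2*, *BCL2L1* and *MCL1*, the effector genes *BAX* and *BAK1*, and the BH3-only genes *BID*, *BIK*, *BMF*, *BCL2L11* and *PMAIP1*. These are 10 of the 57815 gene identifiers in the expression files, and all 10 were matched. ABC1 and HCC4006 are established human lung adenocarcinoma lines labelled as free of *KEAP1* and *NRF2* mutations. Both were grown in low-glucose DMEM with 10% fetal bovine serum. DEM, diethyl maleate in the methods of the study, was given at 100 μM for 16 h, and the vehicle was DMSO. Polyadenylated RNA was sequenced in 2 libraries for each of the 4 groups, 8 libraries in all, which the methods call biological duplicates. Each line stands for 1 tumour, so a difference between the lines is a difference between these cultures.

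Proteins of this family meet at the outer membrane of mitochondria. BAX and BAK1 form the pores that release cytochrome c and start the caspase cascade. BCL2, BCL-XL (the main product of *BCL2L1*) and MCL1 hold them in check, and the BH3-only proteins act as sensors that either occupy these guardians or activate the effectors directly. Most BH3-only genes are controlled at the level of transcription by stress pathways, whereas BID is cut by caspase-8 and MCL1 is a short-lived protein, so mRNA levels cover only a share of the regulation.

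The feature that joins all 10 genes is the BH3 core, an amphipathic helix that the binding groove of the guardians recognises. The codons of this core are shown because they are the one stretch on which guardians, effectors and sensors can be laid side by side. A search of each coding sequence in the GENCODE annotation on GRCh37 for a leucine codon, 3 further codons, a glycine or alanine codon and an aspartate codon, in frame, with a hydrophobic residue at the fourth place, found exactly 1 match of 18 bases in every member. The leucine codon and the final pair of codons are in capitals, and each sequence is written 5′ to 3′ on the strand of its gene. All 10 matches are exonic and coding.
BCL2 (chr18:60985594-60985611, minus strand, exon 2): CTCcgccaggccGGCGAC
BCL2L1 (chr20:30309737-30309754, minus strand, exon 2): CTGagggaggcaGGCGAC
MCL1 (chr1:150551353-150551370, minus strand, exon 1): TTAcgacgggttGGGGAT
BAX (chr19:49459044-49459061, plus strand, exon 3): CTCaagcgcatcGGGGAC
BAK1 (chr6:33543176-33543193, minus strand, exon 4): CTCgccatcatcGGGGAC
BID (chr22:18222193-18222210, minus strand, exon 4): CTCgcccaggtcGGGGAC
BIK (chr22:43523722-43523739, plus strand, exon 3): CTGgcctgcatcGGGGAC
BMF (chr15:40396408-40396425, minus strand, exon 4): CTTcagtgcattGCAGAC
BCL2L11 (chr2:111907680-111907697, plus strand, exon 3): TTGcggcgtattGGAGAC
PMAIP1 (chr18:57569905-57569922, plus strand, exon 2): CTCaggagatttGGAGAC
*BMF* alone carries an alanine codon where the other 9 members carry glycine. *PMAIP1*, which encodes NOXA, has the shortest coding sequence with 54 codons, against 350 codons in *MCL1*.

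Levels are given in FPKM, which scales fragments to transcript length and library size and so allows genes to be compared per length. The libraries were alike in scale: their FPKM sums differed by at most 1.18-fold and 12515 to 13573 genes per library reached 1 FPKM. The NRF2 targets *NQO1* and *GCLM* were called higher with DEM in both lines by limma with Benjamini-Hochberg adjustment, with log2 fold changes of 1.59 and 1.61 in ABC1 and of 0.89 and 2.15 in HCC4006. In ABC1 the call of *NQO1* was lost without any 1 of the 4 libraries (adjusted p between 0.0681 and 0.284), and that of *GCLM* without vehicle replicate 0 (0.194) or 1 (0.137). All 6 epithelial markers were at 1 FPKM or more in every library. The alveolar markers *NKX2-1* and *NAPSA* lay between 42.4 and 47.1 and between 12.9 and 16.0 FPKM in HCC4006 and under 1 FPKM in ABC1, and the surfactant gene *SFTPC* was at or near 0 in both lines. Summed levels of the leukocyte markers (4 of 4 matched) did not pass 0.715 FPKM, and those of the endothelial markers (2 of 3 matched) did not pass 0.236 FPKM. Of the 4 fibroblast markers *COL1A1* alone was seen, at 3.58 to 7.64 FPKM. Epithelial marker sums were lower with DEM (3443 to 4085 FPKM) than with vehicle (4393 to 5825 FPKM). The keratin genes *KRT7*, *KRT8* and *KRT18* were called lower in HCC4006 (-0.51, -0.46 and -0.40 on the log2 scale). In ABC1 they changed by -1.02, -0.54 and -0.65 and were not called in the fit of that line. A limma model of all 8 libraries called *KRT7*, *KRT18* and *KRT19* lower in ABC1 and lost *KRT8* in HCC4006. *EPCAM* (-0.004 in ABC1 and 0.06 in HCC4006) and *CDH1* (-0.02 and -0.14) were not called in either line. The part of this keratin shift in the results below was not tested. In bulk RNA, fewer cells of a type and less RNA per cell cannot be told apart.

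In untreated cells the lines held different sets of family transcripts. HCC4006 had more *PMAIP1*, *BMF*, *BAK1* and *BCL2L1*, ABC1 had more *BID*, *BAX* and *BCL2L11*, and *BCL2* was practically restricted to ABC1. *MCL1* was the member with the smallest difference. By limma on log2(FPKM + 1), with genes at a mean of at least 1 FPKM and Benjamini-Hochberg adjustment at 0.05, 8 of the 9 members tested differed between the lines, 4 higher and 4 lower in HCC4006. *BCL2*, counted among the lower, passed the minimum only through ABC1, with vehicle and with DEM. Its call could go in this direction only and adds nothing to the count. Of all 13747 genes tested in the same comparison, 67.7% were called, 37.3% higher and 30.4% lower in HCC4006, so differences between these lines were common. The median log2 difference was -0.08 for the members and 0.07 for all genes tested. The same 8 members were called, in the same directions, when the DEM libraries of the lines were compared, where 63.6% of all genes were called, 34.8% higher and 28.8% lower in HCC4006.

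**Figure D1:**
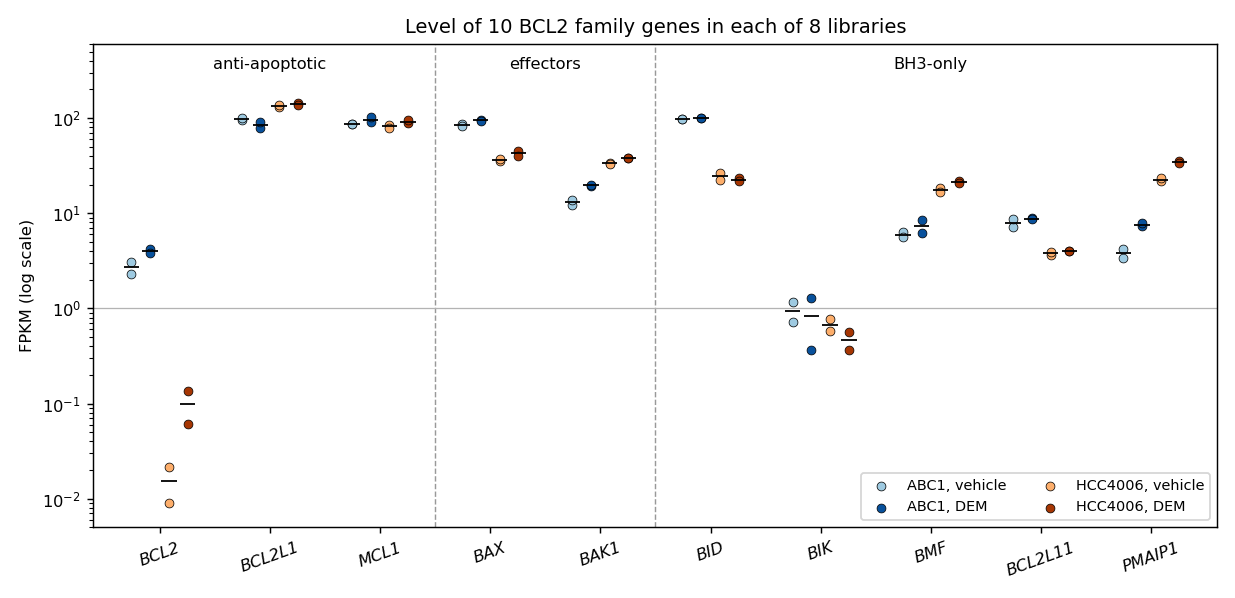
FPKM on a log axis of the 10 family genes in each of the 8 libraries (points), with the mean of each group of 2 libraries as a short line and 1 FPKM as a grey line. *BCL2* is seen in ABC1 and is near 0 in HCC4006, *BIK* is near 1 FPKM or below in every library, and *BID*, *BAX*, *BAK1*, *BMF* and *PMAIP1* separate the lines.

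Among the anti-apoptotic genes, *BCL2L1* and *MCL1* carried nearly all transcripts. *BCL2L1* (ENSG00000171552.8, chr20:30252255-30311792) had 94.8 and 100.2 FPKM in the vehicle libraries of ABC1 and 131 and 136 FPKM in those of HCC4006. All HCC4006 values lay above all ABC1 values, a log2 difference of 0.45 (standard error 0.09, adjusted p = 0.00636 by limma). This call was lost without HCC4006 vehicle replicate 0 (adjusted p = 0.0653) or 1 (0.0785), while the difference stayed at 0.48 and 0.43. *MCL1* (ENSG00000143384.8, chr1:150533371-150552214) had 87.3 and 86.8 FPKM in ABC1 and 85.3 and 79.4 FPKM in HCC4006. The log2 difference of *MCL1* was -0.08 (95% confidence interval -0.30 to 0.14), and it was not called. *BCL2* (ENSG00000171791.10, chr18:60790579-60987361), the founding member of the family, had 2.28 and 3.09 FPKM in ABC1 and 0.00902 and 0.0215 FPKM in HCC4006. With a base mean of 2.01 scaled counts over the HCC4006 libraries in the deposited table, against 152 over those of ABC1, no ratio is given for *BCL2*, and its log2 difference of -1.85 on the log2(FPKM + 1) scale (adjusted p = 0.000421) understates the gap. *BCL2* passed the minimum of 1 FPKM only through ABC1 and fell below it without ABC1 vehicle replicate 1. *BCL2* made up 1.24% and 1.63% of the summed FPKM of the 3 guardians in the vehicle libraries of ABC1.

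The pore-forming effectors were balanced differently. *BAX* (ENSG00000087088.15, chr19:49458072-49465055) had 86.6 and 82.6 FPKM in ABC1 and 35.2 and 37.3 FPKM in HCC4006, a log2 difference of -1.20 (standard error 0.09, adjusted p = 0.000211). *BAK1* (ENSG00000030110.8, chr6:33540324-33548070) went the other way, with 12.3 and 13.8 FPKM in ABC1 and 33.7 and 33.1 FPKM in HCC4006. Its log2 difference was 1.30 (standard error 0.10, adjusted p = 0.000252). *BAX* thus exceeded *BAK1* 7.04-fold and 6.0-fold in the vehicle libraries of ABC1, whereas the ratio was 1.04 and 1.13 in those of HCC4006.

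Among the 5 BH3-only members, *BID* dominated in ABC1 and shared its place with *PMAIP1* and *BMF* in HCC4006. The BH3-only relative *BAD*, outside the members and these shares, had 25.4 and 32.3 FPKM with vehicle in ABC1 and 17.7 and 17.5 FPKM in HCC4006. *BID* (ENSG00000015475.14, chr22:18216904-18257536), the link from death receptors to mitochondria, had 97.4 and 97.1 FPKM in ABC1 and 26.5 and 22.3 FPKM in HCC4006, a log2 difference of -1.96 (standard error 0.11, adjusted p = 9.35e-05). It made up 84.7% and 83.2% of the summed FPKM of the 5 BH3-only genes in vehicle-treated ABC1 and 37.3% and 33.2% in HCC4006. *PMAIP1* (ENSG00000141682.11, chr18:57567228-57571537), whose product binds MCL1, had 3.38 and 4.17 FPKM in ABC1 and 21.6 and 23.3 FPKM in HCC4006. At 5.95 times the mean FPKM of ABC1, *PMAIP1* had the largest excess in HCC4006 among the members, with a log2 difference of 2.3 (standard error 0.13, adjusted p = 8.56e-05). *BMF* (ENSG00000104081.9, chr15:40380091-40401093), a BH3-only protein tied to the cytoskeleton, had 6.27 and 5.56 FPKM in ABC1 and 18.5 and 16.9 FPKM in HCC4006, a log2 difference of 1.44 (standard error 0.12, adjusted p = 0.000276). *BCL2L11* (ENSG00000153094.17, chr2:111876955-111926021), which encodes BIM, had 7.22 and 8.75 FPKM in ABC1 and 3.64 and 3.94 FPKM in HCC4006. The difference in *BCL2L11* of -0.90 (adjusted p = 0.00264) was no longer called without HCC4006 vehicle replicate 0 (-0.86, adjusted p = 0.0606) or 1 (-0.95, adjusted p = 0.0510). *BIK* (ENSG00000100290.2, chr22:43506756-43525718) stayed below the minimum and was not tested; its vehicle libraries had 0.727 and 1.16 FPKM in ABC1 and 0.764 and 0.580 FPKM in HCC4006, and these ranges overlapped.

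Ranked by mean FPKM with vehicle, ABC1 ran from *BCL2L1* and *BID*, whose ranges overlapped, through *MCL1*, *BAX*, *BAK1*, *BCL2L11*, *BMF*, *PMAIP1* and *BCL2* to *BIK*. In HCC4006 the order was *BCL2L1*, *MCL1*, *BAX*, *BAK1*, *BID*, *PMAIP1*, *BMF*, *BCL2L11*, *BIK* and *BCL2*, and the only neighbours with overlapping ranges were *BID* and *PMAIP1*. With DEM, *PMAIP1* stood above *BID* in HCC4006 with ranges apart, and in ABC1 it moved to the range of *BMF*.

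Summed by role, the 3 guardians reached 184 and 190 FPKM in the vehicle libraries of ABC1 and 217 and 216 FPKM in those of HCC4006. The effectors reached 99.0 and 96.4 FPKM in ABC1 and 68.9 and 70.4 FPKM in HCC4006, and the BH3-only genes 115 and 117 FPKM in ABC1 and 71.1 and 67.0 FPKM in HCC4006. In unscaled FPKM, sums of both pro-apoptotic classes were higher with DEM than with vehicle in every library of either line: effectors reached 116 and 113 FPKM in ABC1 and 83.3 and 77.5 FPKM in HCC4006, and BH3-only genes 126 and 122 FPKM in ABC1 and 84.8 and 80.8 FPKM in HCC4006. Guardian sums with DEM were 173 and 196 FPKM in ABC1, on either side of the vehicle values, and 231 and 233 FPKM in HCC4006, above them. These sums are descriptions without a test, and FPKM of different transcripts do not measure protein. They were not rescaled to the FPKM sums of the libraries, which in ABC1 were 628775 and 697394 with vehicle and 627085 and 737534 with DEM. The BH3-only sums also leave out the relatives *BAD*, *BBC3* and *HRK*. In ABC1 *BAD* had 25.4 and 32.3 FPKM with vehicle and 24.1 and 21.5 FPKM with DEM, while *BBC3* and *HRK* overlapped between the groups. Divided by the FPKM sums of the libraries, the effector and the BH3-only values of ABC1 overlapped between DEM and vehicle. The unscaled BH3-only sums of ABC1 also overlapped once *BAD*, *BBC3* and *HRK* were added. The higher sums with DEM in ABC1 thus hold only for unscaled FPKM and for the members as listed.

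**Figure D2:**
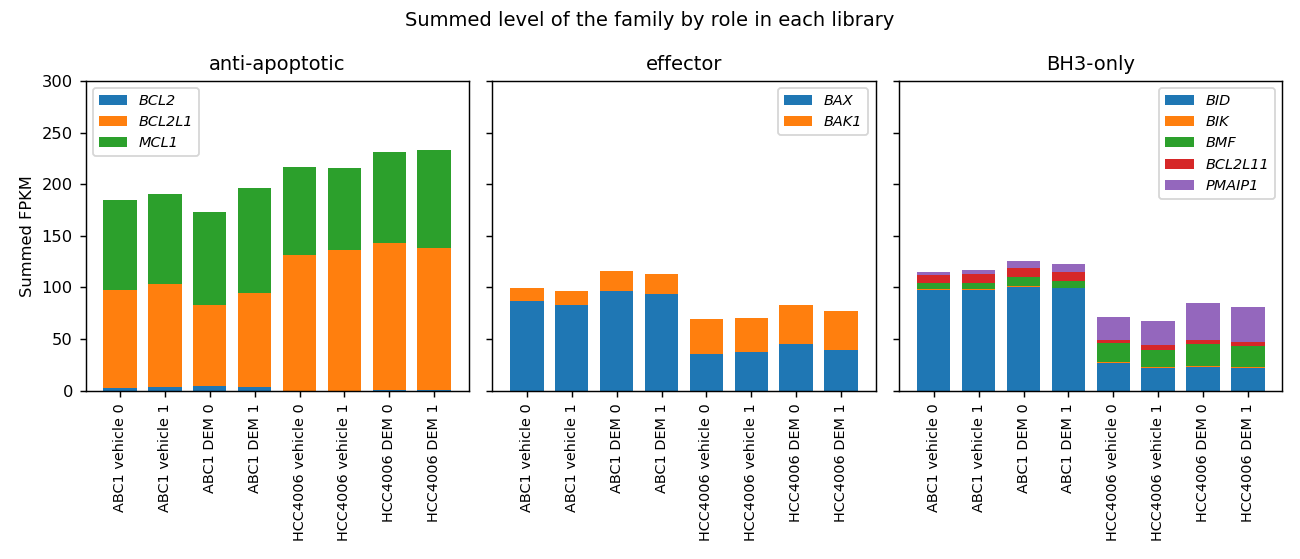
Summed FPKM of the 3 anti-apoptotic, 2 effector and 5 BH3-only genes in each of the 8 libraries, stacked by gene. The BH3-only bars of ABC1 (115 to 126 FPKM) consist mostly of *BID*, those of HCC4006 (67.0 to 84.8 FPKM) of *BID*, *BMF* and *PMAIP1*.

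The next question was which members responded to DEM within each line. *PMAIP1* had the largest difference in both lines: its mean FPKM with DEM was 2.01 times that with vehicle in ABC1 and 1.53 times in HCC4006. It was called in HCC4006 and missed the threshold in ABC1. *BAK1* followed in ABC1 at 1.51 times, and *BMF* in HCC4006 at 1.21 times, neither called. In ABC1, 0 of the 9 members tested were called by limma with Benjamini-Hochberg adjustment, against 1.20% of all 12635 genes tested (97 higher and 55 lower, or 122 and 120 after scaling to the same sum of FPKM). Unadjusted p-values under 0.05 were found by limma for the members *BAK1* (0.00521) and *PMAIP1* (0.00218), beside 2771 of all 12635 genes, so this was common. In HCC4006, 1 of the 8 members tested was called, as higher, against 19.1% of all 13542 genes, 8.45% higher and 10.7% lower. Permuting 2 libraries against 2 reaches no two-sided exact p below 0.333 for any gene, so the calls rest on the spread that limma shares between genes.

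*PMAIP1*, a sensor induced by several stress pathways, rose in HCC4006 from 21.6 and 23.3 FPKM with vehicle to 35.3 and 33.5 FPKM with DEM. This amounts to 0.59 on the log2 scale, with a standard error of 0.09 and an adjusted p of 0.00986 by limma. The call was lost without vehicle replicate 0 (0.54, adjusted p = 0.0562), without DEM replicate 0 (0.56, adjusted p = 0.0548) and without an expression minimum (adjusted p = 0.0765). In ABC1 it had 3.38 and 4.17 FPKM with vehicle and 7.28 and 7.89 FPKM with DEM, again without overlap. There the change was 0.85 on the log2 scale (95% confidence interval 0.45 to 1.25), with an adjusted p of 0.0705. A model of all 8 libraries, which estimates the spread from more samples, gave an adjusted p of 0.00653 in ABC1 and of 0.0207 in HCC4006. That model called *PMAIP1* and *BAK1* higher in ABC1, 2 of the 9 members, beside 6.17% of all genes. In HCC4006 it called *PMAIP1* alone, 1 of the 8 members, beside 5.87% of all genes.

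*BAK1* had 12.3 and 13.8 FPKM with vehicle and 19.5 and 19.9 FPKM with DEM in ABC1, so that the groups were apart. The change of *BAK1* was 0.56 on the log2 scale (95% confidence interval 0.24 to 0.88), with an adjusted p of 0.0949 in the fit of ABC1 alone and of 0.0123 in the model of all 8 libraries. In HCC4006 *BAK1* had 33.7 and 33.1 FPKM with vehicle and 37.8 FPKM in both DEM libraries, a log2 fold change of 0.17 (adjusted p = 0.148). *BAX*, the partner effector, had 86.6 and 82.6 FPKM with vehicle and 96.3 and 93.1 FPKM with DEM in ABC1, and 35.2 and 37.3 against 45.4 and 39.6 FPKM in HCC4006. These differences of 0.16 (adjusted p = 0.470) and 0.22 (adjusted p = 0.145) were not called, although the libraries did not overlap. The ratio of *BAX* to *BAK1* in ABC1 was 4.94 and 4.68 with DEM.

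**Figure D3:**
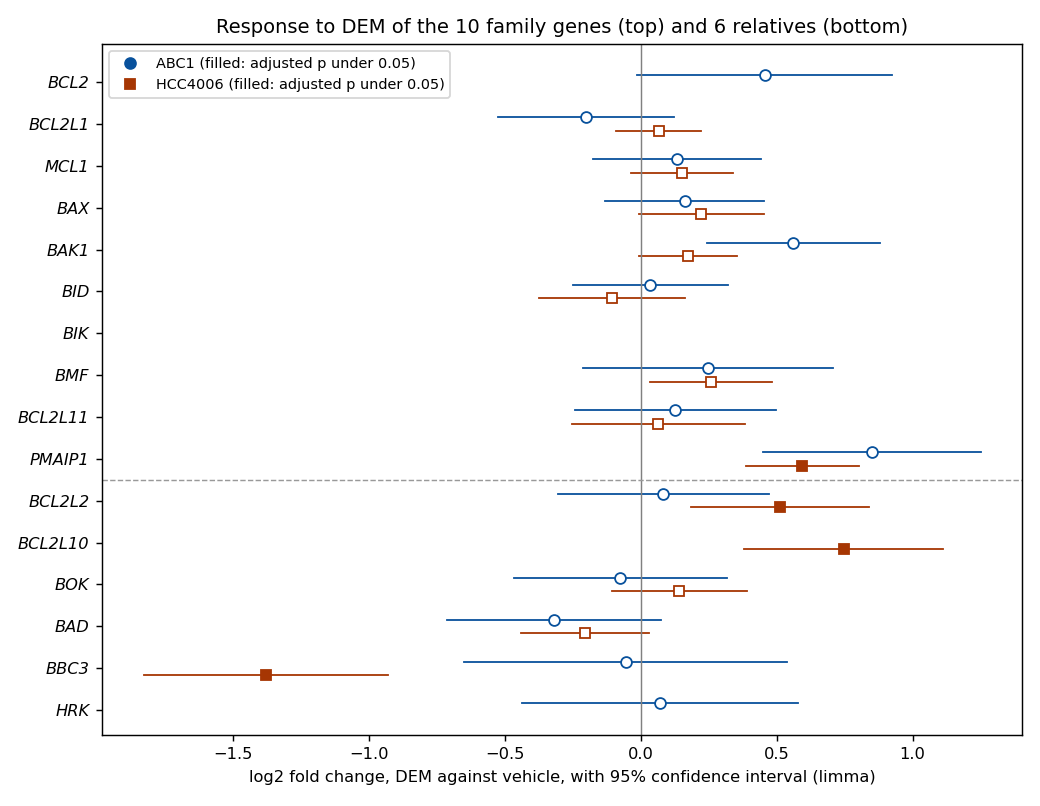
Log2 fold change of DEM against vehicle, with 95% confidence intervals from limma, for the 10 family genes and 6 relatives in ABC1 (blue circles) and HCC4006 (red squares); filled symbols have an adjusted p under 0.05 and genes under the expression minimum have no symbol. *PMAIP1* lies at 0.85 and 0.59, *BAK1* at 0.56 and 0.17, and *BBC3* at -0.06 and -1.38.

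None of the anti-apoptotic members tested was called with DEM in either line by limma or by the model of all 8 libraries. *BCL2L1* had 94.8 and 100.2 FPKM with vehicle and 78.9 and 90.7 FPKM with DEM in ABC1, the one member there with all DEM values below vehicle (log2 fold change -0.20, adjusted p = 0.417). In HCC4006 it had 131 and 136 FPKM with vehicle and 143 and 138 FPKM with DEM (0.07, adjusted p = 0.496). *MCL1* had 90.2 and 101 FPKM with DEM in ABC1 and 88.1 and 94.9 FPKM with DEM in HCC4006. Those values lay above vehicle in both lines, by 0.13 (95% confidence interval -0.18 to 0.44) and 0.15 (-0.04 to 0.34), and neither was called. *BCL2* had 4.22 and 3.84 FPKM with DEM in ABC1, above both vehicle libraries, and its log2 fold change of 0.46 had an interval of -0.02 to 0.93 (adjusted p = 0.240). Its DEM libraries in HCC4006 had 0.135 and 0.0615 FPKM, too few reads for a comparison.

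The other BH3-only genes were not called in either line. *BMF* had 8.42 and 6.13 FPKM with DEM in ABC1, where 1 DEM library lay among the vehicle values (0.25, adjusted p = 0.481), and 21.8 and 20.9 FPKM with DEM in HCC4006, above both vehicle libraries (0.26, adjusted p = 0.10). *BCL2L11* had 8.85 and 8.68 FPKM with DEM in ABC1 (0.13, adjusted p = 0.662) and 4.02 and 4.0 FPKM in HCC4006 (0.06, adjusted p = 0.751). *BID* stayed within 3 FPKM of vehicle in ABC1, at 99.96 and 99.3 FPKM (0.03, 95% confidence interval -0.25 to 0.32; the sign turned after scaling to the same sum). In HCC4006 *BID* had 23.3 and 21.8 FPKM with DEM (-0.11, -0.37 to 0.16). *BIK* had 1.29 and 0.365 FPKM with DEM in ABC1 and 0.364 and 0.571 FPKM in HCC4006.

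Counted in unscaled FPKM and without regard to the test, 6 of the 9 members tested in ABC1 had both DEM libraries above both vehicle libraries, and 1 had both below. Over all genes tested in ABC1 these shares were 25.5% and 28.2%. In HCC4006, 7 of the 8 members tested had both DEM libraries above and 0 had both below, against 29.3% and 35.3% of all genes. These counts depend on the scale of the libraries. Divided by the FPKM sum of each library, *BAX*, *MCL1* and *BID* overlapped in ABC1, and *BCL2*, *BAK1* and *PMAIP1* stayed above vehicle. In HCC4006 the same division made *BCL2L1* and *BCL2L11* overlap and put *BID* just below vehicle. Shares of all genes under that division were not counted. The median log2 fold change of the members was 0.16 in ABC1 and 0.16 in HCC4006, against -0.02 and -0.03 over all genes tested. The members were chosen with results of these data known, and the 95% confidence interval of all but *BAK1* and *PMAIP1* in ABC1 and *BMF* and *PMAIP1* in HCC4006 included 0.

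**Figure D4:**
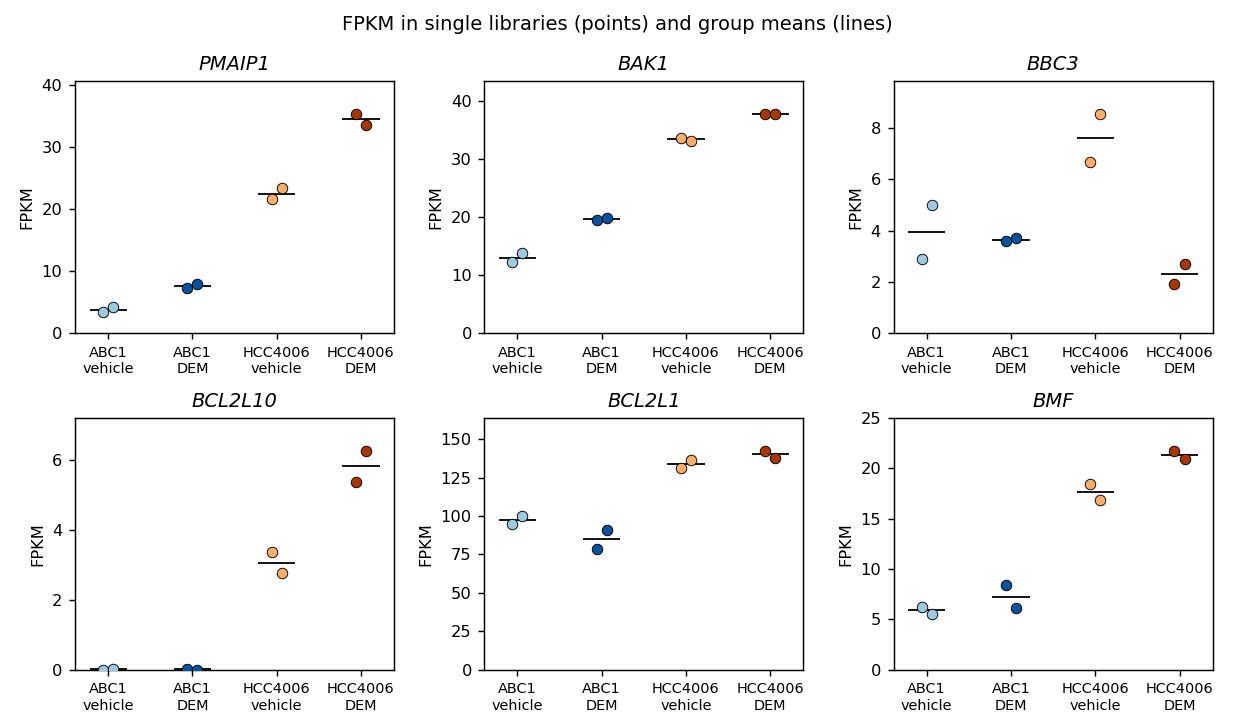
FPKM of 6 genes in each of the 8 libraries (points), with group means as lines and every axis starting at 0. The DEM libraries lie above the vehicle libraries for *PMAIP1* and *BAK1* in both lines (called by the fit within a line for *PMAIP1* in HCC4006), *BBC3* is lower with DEM in HCC4006, *BCL2L10* is seen in HCC4006 alone, and *BCL2L1* and *BMF* differ mainly between the lines.

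Whether the lines responded differently was tested as an interaction over all 8 libraries, in which 0 of the 9 members tested were called, against 0.636% of all 13682 genes. *BAK1* alone of the members had an unadjusted p under 0.05 (0.0196), as had 2068 of all 13682 genes. Its response was 0.39 smaller in HCC4006 on the log2 scale, at -0.39 (95% confidence interval -0.69 to -0.08, adjusted p = 0.228). The difference for *PMAIP1* was -0.26 (-0.64 to 0.13, adjusted p = 0.541). For *BCL2L1*, with fold changes of opposite sign in the lines, it was 0.27 (-0.05 to 0.59, adjusted p = 0.422). *MCL1* and *BMF* had differences of 0.02 and 0.01, with intervals of -0.30 to 0.34 and -0.48 to 0.50. These intervals do not exclude line differences of the size of the responses themselves.

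Over the 8 libraries, *BAK1* was the member with the smallest p in this interaction, and the genes whose log2(FPKM + 1) followed it most closely were *CBS*, *SEC14L1* and *TRAPPC6B*, with Pearson's r of 0.998, 0.998 and 0.997. *CBS*, cystathionine beta-synthase of the transsulfuration pathway, had 13.5 and 15.9 FPKM with vehicle and 28.9 and 32.5 FPKM with DEM in ABC1, and 93.7 and 93.6 against 120 and 109 FPKM in HCC4006. This is a description over 8 libraries that share 2 lines and 1 treatment, and 2484 of the 13681 other genes also had an r over 0.9.

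The promoter of *PMAIP1* is shown because it is the member that was called with DEM. RefSeq promoter windows (GRCh38.p14, from 250 bases before to 50 bases after a start site) were found for 8 of the 10 members, 14 windows in all. The 250 bases before the *PMAIP1* start site, chr18:59899746-59899995 on the plus strand, hold the first 5 bases of the cyclic AMP response element, TGACG, once, on the minus strand. It is written as CGTCA in capitals.
PMAIP1: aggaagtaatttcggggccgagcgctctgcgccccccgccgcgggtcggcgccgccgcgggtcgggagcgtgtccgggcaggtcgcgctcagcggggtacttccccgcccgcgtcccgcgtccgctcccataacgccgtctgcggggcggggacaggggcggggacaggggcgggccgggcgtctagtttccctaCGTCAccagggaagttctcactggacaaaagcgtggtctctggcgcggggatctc
The match starts 55 bases before the start site. Searched on both strands, TGACG was in 5 of the 14 windows (those of *BAX*, *BCL2*, *BCL2L1*, *BMF* and *PMAIP1*) and in 24.6% of all 35116 promoter windows. The full element TGACGTCA was in 0 of the 14 windows and in 1.85% of all windows. The core of the antioxidant response element, TGACNNNGC, on which NRF2 acts, was in 2 of the 14 windows, 1 of *BAX* and 1 of *BCL2L1*, and in 13.4% of all windows. The FOXO site TGTTTAC was in 1 window, that of *BCL2L11*, and in 3.42% of all windows. The C/EBP-ATF composite element TGATGNAAN and the AP-1 site TGANTCA were in 0 of the 14 windows and in 3.61% and 7.71% of all windows. A match is a run of letters and no evidence of binding.

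Of the 7 other family genes, *BBC3* had the largest change. *BBC3*, which encodes the BH3-only protein PUMA, a p53 target, fell in HCC4006 from 6.66 and 8.56 FPKM with vehicle to 1.92 and 2.71 FPKM with DEM. This call (-1.38 on the log2 scale, 95% confidence interval -1.83 to -0.93, adjusted p = 0.00792) held without any 1 of the libraries and was lost without an expression minimum (adjusted p = 0.121). In ABC1 *BBC3* had 2.90 and 4.99 FPKM with vehicle and 3.58 and 3.72 FPKM with DEM (-0.06, adjusted p = 0.914; 0.25 without vehicle replicate 1). The difference between these responses was -1.32 (95% confidence interval -2.08 to -0.57), with an adjusted p of 0.128. *PMAIP1* and *BBC3*, both known as p53 targets, thus moved in opposite directions in HCC4006. The order of the lines in *BBC3* turned with the treatment in these estimates, while the interaction above was not called. HCC4006 was higher by 0.82 with vehicle (adjusted p = 0.0289 by limma) and lower with DEM, at -0.50 (adjusted p = 0.0477). The call with DEM was not rerun with libraries left out. Without an expression minimum the vehicle call was lost (adjusted p = 0.166 by limma). The vehicle call was lost without ABC1 vehicle replicate 0 (0.52, adjusted p = 0.0895) and without HCC4006 vehicle replicate 0 (0.98, 0.137) or 1 (0.66, 0.240).

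*BCL2L10*, an anti-apoptotic member, was seen in HCC4006 alone, where it rose from 3.37 and 2.75 FPKM to 5.36 and 6.26 FPKM with DEM (log2 fold change 0.75, adjusted p = 0.0242). *BCL2L2*, which encodes the guardian BCL-W, rose in HCC4006 from 9.21 and 8.44 to 14.6 and 11.6 FPKM (0.51, adjusted p = 0.0472). It shares exons with the readthrough gene *BCL2L2-PABPN1*, so its level is uncertain. Leaving out any 1 of the 4 HCC4006 libraries ended both calls, with adjusted p between 0.0541 and 0.107 for *BCL2L10* and between 0.0554 and 0.179 for *BCL2L2*. *BOK* and *BAD* were tested and not called in either line. *HRK*, a BH3-only gene of neurons, had 5.02 and 3.57 FPKM with vehicle in ABC1 and 0.0866 and 0.116 FPKM in HCC4006, and *BCL2A1* was below 0.1 FPKM throughout. In HCC4006, 2 of the 5 relatives tested were called higher and 1 lower with DEM, beside 8.45% and 10.7% of all genes. The model of all 8 libraries lost *BCL2L2* (adjusted p = 0.0610) and so called 1 higher and 1 lower, beside 795 higher and 990 lower of all 13542 genes. Without an expression minimum *BCL2L10* (adjusted p = 0.155) and *BCL2L2* (0.234) were lost as well. In ABC1, 0 of 5 were called, and 0 had an unadjusted p under 0.05.

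**Figure D5:**
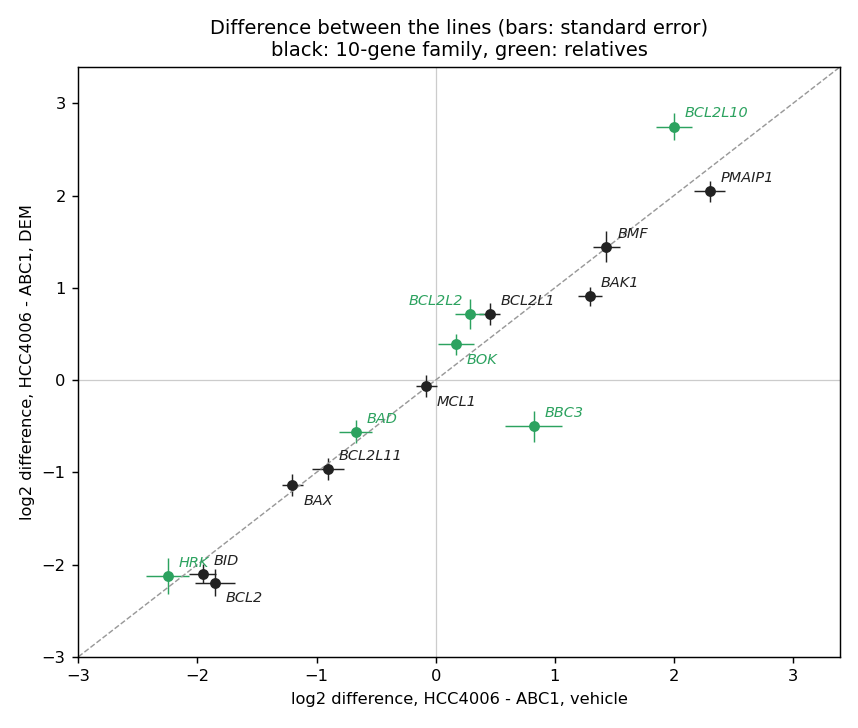
Log2 difference between the lines (HCC4006 minus ABC1) with vehicle on the x axis and with DEM on the y axis for the members (black) and their relatives (green) tested in both, with standard errors as bars and equality as a dashed line. *BBC3* (0.82 and -0.50) is far below the line, *BCL2L10* (2.00 and 2.75) above it, and the members lie near it. *BCL2L10* passed the expression minimum only through HCC4006, and *BCL2* and *HRK* only through ABC1.

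Genes upstream and downstream of the family were counted in named lists. Of 9 transcription factors known to act on family genes, 5 rose and 2 fell with DEM in HCC4006 and 1 rose in ABC1. Over all genes tested, 8.45% were called higher and 10.7% lower in HCC4006, and 0.768% higher in ABC1. *DDIT3*, the stress factor CHOP, rose from 16.7 and 17.1 to 53.0 and 39.9 FPKM in ABC1 (1.40, adjusted p = 0.0365) and from 19.4 and 21.1 to 48.4 and 49.6 FPKM in HCC4006 (1.24, adjusted p = 0.00136). *ATF3* rose in HCC4006 by 1.33 on the log2 scale (from 14.8 and 13 to 35.8 and 36.7 FPKM) and *ATF4* by 0.76. *TP73*, a p53 relative, fell by 1.05, and *E2F1* fell by 0.63 in HCC4006. In ABC1 the call of *DDIT3* was lost without vehicle replicate 0 (adjusted p = 0.286), vehicle replicate 1 (0.241) or DEM replicate 0 (0.0551), without an expression minimum (0.182) and without a mean-variance trend (0.0655).

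Downstream of the pore, 0 of the 10 genes of caspase activation rose and 1 fell with DEM in HCC4006: *APAF1*, the scaffold of the apoptosome, went from 5.28 and 4.86 to 3.03 and 2.46 FPKM (-0.70, adjusted p = 0.0266). Beside this count and the next ones in HCC4006, 8.45% of all genes tested there were called higher and 10.7% lower. Among the inhibitors of apoptosis proteins, 5 of 6 were tested in HCC4006, where *BIRC2* and *XIAP* rose by 0.43 and 0.31 and *BIRC3* fell by 0.77. In the death receptor arm, 2 of 11 rose in HCC4006, *TNFRSF1A* and *TNFRSF10A* by 0.51 each, and the ligand gene *TNFSF10* (TRAIL) fell from 14.4 and 13.3 to 5.25 and 4.43 FPKM (-1.35, adjusted p = 0.00289). Of the 7 partners and ubiquitin enzymes, the co-chaperone gene *BAG3* rose by 0.75 and *DYNLL2*, a dynein light chain that holds BMF, fell by 0.31. Of 9 BCL2-related proteins, 7 were tested and *BNIP1* fell by 0.58. In ABC1, 0 of the 36 genes of these 5 lists that were tested were called by limma with Benjamini-Hochberg adjustment. An unadjusted p under 0.05 was found for 12 of them and for 2771 of all 12635 genes. The model of all 8 libraries called 5 of the 36 higher and 1 lower in ABC1, beside 6.17% of all genes called higher and 788 of the 12635 called lower. In HCC4006 the same model ended the calls of all 3 inhibitors, *BIRC2* (adjusted p = 0.152), *XIAP* (0.0612) and *BIRC3* (0.154). It also ended those of *TNFRSF1A* (0.125), *TNFRSF10A* (0.0542), *DYNLL2* (0.0607) and *TP73* (0.0552). Leaving out 1 library at a time in HCC4006, the calls of *ATF3*, *DDIT3*, *ATF4*, *TNFSF10* and *BAG3* held throughout. Without an expression minimum, however, *ATF4* (adjusted p = 0.0630), *TNFSF10* (0.0632) and *BAG3* (0.0776) lost theirs, as did every other gene of these lists named as called in HCC4006 except *ATF3* and *DDIT3*. Those of *APAF1*, *BIRC2*, *XIAP*, *BIRC3*, *TP73* and *DYNLL2* were lost without any 1 of the 4 libraries. *BNIP1* and *TNFRSF1A* kept their call only without DEM replicate 1, and *TNFRSF10A* and *E2F1* only without vehicle replicate 0. The adjusted p of the lost calls lay between 0.0521 and 0.215.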

How the data were processed

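RNA-seq was done on 8 libraries (4 groups of 2). The authors deposited an FPKM value per gene and library, and a table per line with a base mean (a signal of counts scaled to a common depth and averaged over the line's libraries). That table also holds the authors' own log2 fold changes, standard errors, test statistics and p-values, which were not used. The submitters' processing notes name bcl2fastq 2.15.0, cutadapt 1.15, STAR 2.5.3a, SAMtools, Cuffnorm, HTSeq, DESeq2 and R 3.2.0, with builds hg19 and GRCh37.p13, whereas the methods of the study name TopHat and Cufflinks. Whether strand was used in counting is not given in the sources used here.

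Symbols were matched for 55534 of 57815 identifiers. Reads per library are not known from these values, and depth is known only from the base means, which summed to 13786938 in ABC1 and 13957320 in HCC4006, and no counting interval is given. The design had foreseen a count test, and since the files hold FPKM, genes averaging 1 FPKM or more were modelled as log2(FPKM + 1) in limma 3.58.1 (R 4.3.3), with a mean-variance trend, Benjamini-Hochberg adjustment over all genes tested and a threshold of 0.05. Each line was fitted alone, the vehicle libraries for the line comparison, and all 8 for the interaction. Fold changes are on the log2(FPKM + 1) scale, which understates those of low genes. The fits were tested on simulated data. Replicate libraries correlated with an r of 0.976 to 0.987 across genes. If replicates were not separate cultures, p-values measure a technical spread.

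Members and lists were chosen with earlier results of these data known. Named were all members and relatives, the controls *NQO1* and *GCLM*, from each other list up to 3 called genes per comparison and direction by size of change, and the 3 genes most like the member with the smallest interaction p. The comparisons with DEM and the line comparison share the vehicle libraries. Some genes that this rule names are not reported here. Positions are those of GENCODE v44 lifted to GRCh37.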

Additional observations from a re-analysis of the deposited data

How the results depend on the processing

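Across the single-gene values, 1102 of 1261 alternative values kept direction and side of the threshold, 129 lost a call, 6 gained one and 24 changed sign. Among members, the 8 calls between the lines held under every scaling, pseudocount and trend setting run, except that *BCL2* was not tested with a minimum of 3 FPKM. The number of genes called in ABC1 was 152 and became 0 without an expression minimum, 299 with median of ratios scaling, 242 after scaling to the same sum, 33 without a trend and 1567 in a model of all 8 libraries, with 2 members called in the last. Without 1 library it lay between 18 and 69. In HCC4006, 2591 genes became 370 without a minimum, with 0 members called, and between 634 and 1028 without 1 library, with 0 to 1 members called. The interaction count of 87 became 20 with a pseudocount of 0.1, 403 without a minimum and between 4 and 41 without 1 library. Between the lines, 9305 became 5572 to 9005 without 1 library. The cause of these shifts was not tested, and leaving out 1 library changed both the number of libraries and the data.

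Replicate numbers of the labels were tried as a pairing block. The deviations of same-numbered libraries correlated at 0.258 in ABC1 and 0.054 in HCC4006, with only 2 pairs a line, so the numbers do not establish a pairing. With the replicate block, 2348 genes and 2 members (*BAK1*, adjusted p = 0.0182, and *PMAIP1*, adjusted p = 0.0147) were called in ABC1 and 13 genes in the interaction.

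Signs turned for differences near 0. After scaling to the same sum, *BID* was -0.00341 in ABC1. With a pseudocount of 0.1, the interaction of *BCL2* was 0.18 and that of *BMF* -0.00862. Without 1 library, the values in ABC1 ranged from -0.018 to 0.18 for *BCL2L2*, -0.13 to 0.27 for *HRK*, -0.25 to 0.095 for *BOK* and -0.36 to 0.25 for *BBC3*, and in HCC4006 from -0.23 to 0.015 for *BID*. Those of the interaction ranged from -0.19 to 0.21 for *BMF*, -0.18 to 0.061 for *BCL2L11*, -0.072 to 0.32 for *HRK*, -0.067 to 0.10 for *MCL1*, -0.054 to 0.28 for *BAD* and -0.034 to 0.16 for *BAX*. None of these was called. *BBC3* turned between the lines from 0.82 to -0.50 with the DEM libraries.

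Low values limit what can be said of *BCL2* in HCC4006 and of *BIK* in both lines, which lie at or under the expression minimum. Libraries are 2 a group, and a single fit cannot separate a line from its culture.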

Other observations

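Genes of the death receptor arm also separated the untreated lines. *FAS* had 0.0271 and 0.0455 FPKM in ABC1 and 16.1 and 17 FPKM in HCC4006, *TNFRSF10A* was at or near 0 in ABC1 and had 18.3 and 14.6 FPKM in HCC4006, and *TNFSF10* had 0.25 and 0.0488 against 14.4 and 13.3 FPKM. These 3 genes passed the expression minimum only through HCC4006, so a call could have gone in 1 direction only, and no count or median of the list is given.

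Downstream, *CASP6* and the cytochrome c gene *CYCS* were higher in HCC4006 by 1.31 and 0.77, and *ENDOG* was lower (-0.74). *XIAP*, a direct caspase inhibitor, was higher by 1.16, and *BIRC2* lower at -0.31. Of the BCL2-related proteins, *BCL2L12* had 48.8 and 57.4 FPKM in ABC1 and 6.86 and 7.63 FPKM in HCC4006, *BCL2L13* differed by -0.50, and the mitophagy gene *BNIP3* (1.80), *BNIP1* (1.04) and the readthrough gene *BCL2L2-PABPN1* (1.93) were higher in HCC4006. Among the transcription factors *ATF3* (1.55) and *FOXO3* (0.89) were higher and *FOXO1* (-1.51), *E2F1* (-1.09) and *TP73* (-0.86) lower, and of the partners *BAG3* was higher (0.77) and *FBXW7*, a ubiquitin ligase of MCL1, lower (-0.93). *BAD* was lower in HCC4006, at -0.67. *HRK* differed by -2.25, but it passed the expression minimum only through ABC1, so a call could have gone in this direction only. The calls of *CASP6*, *CYCS*, *TP73*, *BAG3*, *BAD*, *BCL2L2-PABPN1* and *BIRC2* were lost without HCC4006 vehicle replicate 0 or 1, those of *ENDOG* and *BCL2L13* without replicate 0, and those of *BCL2L13* and *BIRC2* also without ABC1 vehicle replicate 1. Without an expression minimum the calls of *BAD* (adjusted p = 0.0635), *BCL2L2-PABPN1* (0.0548), *BCL2L13* (0.0819) and *TP73* (0.0913) were lost, and in the model of all 8 libraries that of *BIRC2* (0.154). Between the DEM libraries of the lines, *ENDOG* (-0.16, adjusted p = 0.304 by limma) and *BIRC2* (-0.49, 0.0959) were not called. The replicate block also ended the call of *BIRC2* (adjusted p = 0.0646). The adjusted p of calls lost without 1 library lay between 0.0510 and 0.240.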
